A study of Mus musculus with 12 samples.

Results

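The genes described here are 10 that mark the cells wrapped around blood vessels, the pericytes of capillaries and the smooth muscle cells of arteries and veins: *Pdgfrb*, *Rgs5*, *Cspg4*, *Notch3*, *Acta2*, *Tagln*, *Myh11*, *Des*, *Vtn* and *Abcc9*. They were taken by symbol from the 19057 genes that the array annotation names, and they have 20 of its 45281 probes. Where a gene has several probes, the probe with the highest mean over all arrays stands for it, and the others are given beside it. RNA was measured on 12 Illumina MouseWG-6 arrays, 1 per sample, with 4 arrays each for *NdpKO;Ptch+/-* medulloblastomas (MBs), *Ptch+/-* MBs and granule neuron progenitors (GNPs) of wild-type (WT) mice. Both tumor groups carry the same heterozygous *Ptch* mutation, which activates Hedgehog signalling in GNPs, and the first lacks *Ndp* as well. *Ndp* is X-linked and was disrupted by a *lacZ* cassette in the germ line, so it is missing from every cell of the tumor and its host, and by the breeding scheme the compound mutants were males, whereas controls could be of both sexes. The labels give a mixed strain background to the *NdpKO;Ptch+/-* MBs and C57Bl/6 to the *Ptch+/-* MBs and the GNPs, so strain and genotype cannot be told apart by the labels, although by the methods each compound mutant was set against controls of its own breeding cohort. GNPs came from mice at postnatal day 6 and were purified on Percoll gradients with pre-plating, whereas the tumors were whole tissue. The labels give no ages for the tumors. They do not say either that replicates of a group are separate mice, and p-values measure only the spread between these samples.

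*Ndp* encodes Norrin, a secreted ligand of the Frizzled4 receptor on endothelial cells, where it acts through β-catenin to build and keep the blood-brain barrier. Pericytes share a basement membrane with the endothelium and are recruited to it by endothelial PDGF-B, which binds the receptor encoded by *Pdgfrb*. The cerebellum is a site where vessels depend on Norrin, and the cells that surround its vessels are marked by receptors (*Pdgfrb*, *Notch3*), a regulator of G-protein signalling (*Rgs5*), a surface proteoglycan (*Cspg4*, NG2), contractile and cytoskeletal proteins (*Acta2*, *Tagln*, *Myh11*, *Des*), a secreted adhesive glycoprotein (*Vtn*, vitronectin) and a subunit of an ATP-sensitive potassium channel (*Abcc9*, SUR2). The array series asked how loss of *Ndp* alters the tumor, and the comparison of most interest for these genes is that of *NdpKO;Ptch+/-* with *Ptch+/-* MBs. WT GNPs served as the untransformed counterpart of both.

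The values are log2 signals that were normalized by quantiles, which gives every array the same distribution. A general difference in level between arrays therefore cannot be seen. Signals near 4.1 are the floor of the scale, and a background limit of 4.5 is used here, a value chosen with the data in view. Between 31.8% and 32.5% of an array's probes reached it. The *Ndp* probe lay between 4.12 and 4.21 on all 12 arrays and could not check the genotype of the samples. Of 5 genes of the granule lineage, *Zic1*, *Barhl1* and *Neurod1* were bright on every array (8.32 or more), *Pax6* reached the limit on some, and *Atoh1*, a defining gene of GNPs, lay at the floor on all of them.

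Of the 10 genes, 4 did not reach the limit on any array, namely *Pdgfrb* (4.12 to 4.17), *Tagln* (4.12 to 4.16), *Myh11* (4.11 to 4.14) and *Des* (4.19 to 4.35). *Notch3*, the receptor through which mural cells read endothelial Notch ligands, ranged from 4.20 to 4.56 and reached 4.5 on 1 GNP array alone. The second probes of *Tagln* and *Myh11* were at the floor as well. No difference in these 5 genes could be measured with these probes, and nothing follows from them about the number of pericytes or smooth muscle cells. The label of the set thus rests on *Rgs5*, *Acta2* and *Vtn*, which were above the limit on all 12 arrays, on *Cspg4*, which was above it on 9, and on *Abcc9*, which was above it on 4. The defining PDGF receptor of pericytes and the myosin that defines smooth muscle were not among the measured genes.

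**Figure D1:**
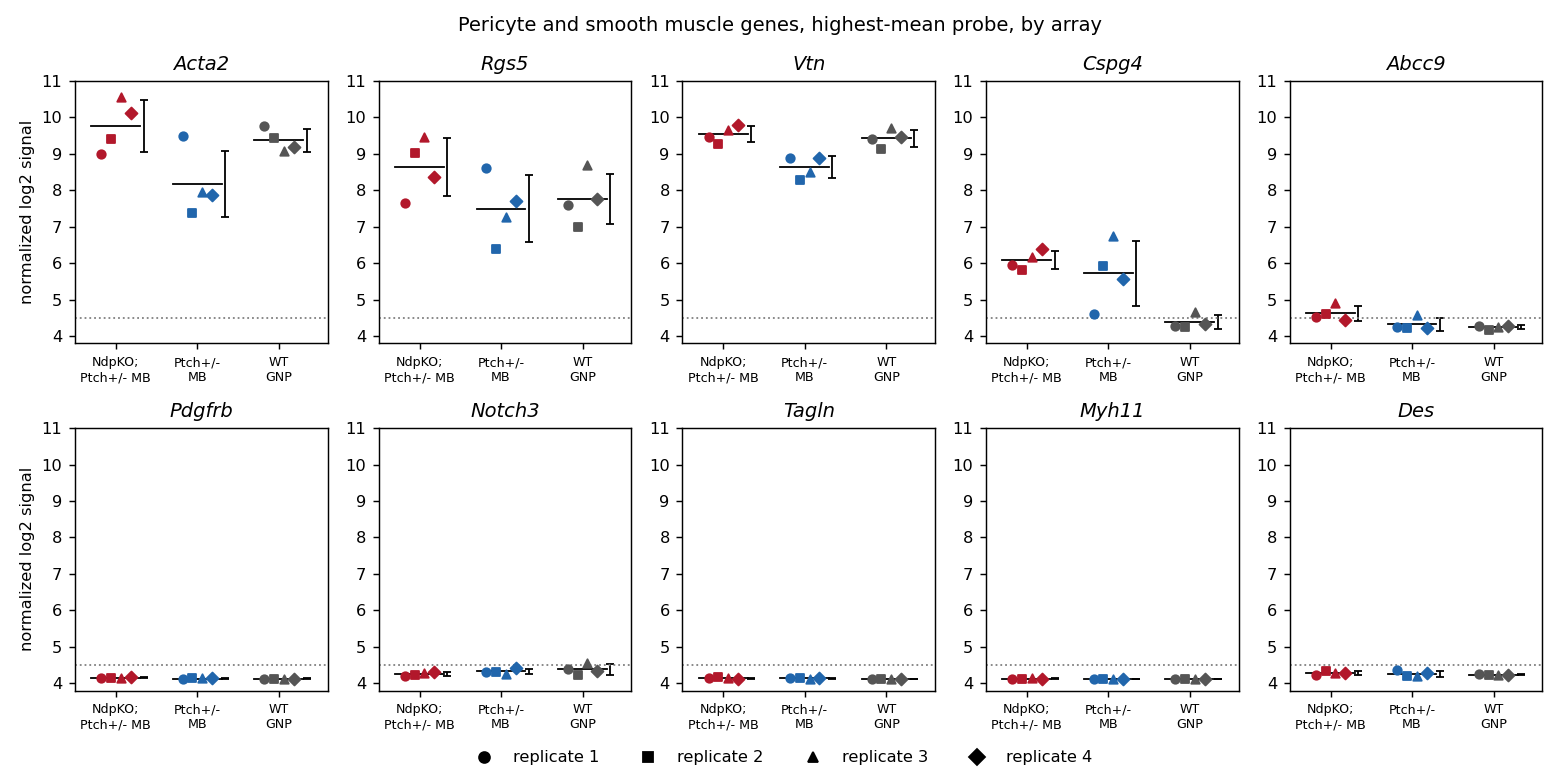
Normalized log2 signal (y axis) of the highest-mean probe of each of the 10 genes in 4 *NdpKO;Ptch+/-* MBs, 4 *Ptch+/-* MBs and 4 WT GNP samples; each symbol is 1 array, the symbol's shape gives the replicate number, lines are group means, bars are 1 SD and the dotted line is the background limit of 4.5. *Vtn* is lower on all 4 *Ptch+/-* MB arrays than on the other 8, *Acta2* and *Rgs5* spread widely within the tumor groups, and *Pdgfrb*, *Tagln*, *Myh11* and *Des* lie under the limit throughout.

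The sequences before the start sites of the 4 genes with clear signals are shown because 3 of them, *Acta2*, *Rgs5* and *Vtn*, had their lowest group mean in *Ptch+/-* MBs, whereas *Cspg4* had its lowest in GNPs. They are 250 bases long, run 5′ to 3′ up to the transcript start that RefSeq gives on GRCm38.p6, and 7 of the 10 genes had such an entry. Capitals mark matches to a CArG-like element, the site of serum response factor (SRF), or to TGGGAA, the core that the Notch effector RBPJ binds.
*Acta2*, chr19:34255374-34255623, minus strand: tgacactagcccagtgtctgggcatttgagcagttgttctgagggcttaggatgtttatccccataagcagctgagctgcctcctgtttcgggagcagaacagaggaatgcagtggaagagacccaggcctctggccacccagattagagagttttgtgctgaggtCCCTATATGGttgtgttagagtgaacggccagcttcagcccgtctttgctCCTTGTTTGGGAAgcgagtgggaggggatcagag
*Rgs5*, chr1:169655251-169655500, plus strand: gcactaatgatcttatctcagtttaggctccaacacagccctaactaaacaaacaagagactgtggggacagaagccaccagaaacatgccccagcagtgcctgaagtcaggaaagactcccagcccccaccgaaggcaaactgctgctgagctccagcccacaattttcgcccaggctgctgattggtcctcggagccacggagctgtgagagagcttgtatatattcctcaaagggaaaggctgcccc
*Vtn*, chr11:78498870-78499119, plus strand: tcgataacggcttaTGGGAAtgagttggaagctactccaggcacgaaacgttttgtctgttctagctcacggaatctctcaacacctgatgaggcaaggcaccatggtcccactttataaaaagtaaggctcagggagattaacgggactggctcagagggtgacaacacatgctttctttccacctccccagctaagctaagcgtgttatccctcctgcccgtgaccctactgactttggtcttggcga
*Cspg4*, chr9:56864854-56865103, plus strand: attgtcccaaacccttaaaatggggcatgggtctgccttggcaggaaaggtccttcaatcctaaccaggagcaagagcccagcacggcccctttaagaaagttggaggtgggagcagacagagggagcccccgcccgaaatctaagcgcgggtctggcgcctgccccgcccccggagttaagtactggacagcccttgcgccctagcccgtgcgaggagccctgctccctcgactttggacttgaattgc
Both strands were searched. The full CArG box was found in none of the 7 windows, and 1.47% of 32817 windows of the same length in the table hold one. With a single core base other than A or T allowed, *Acta2* had 2 matches, CCCTATATGG at 84 to 75 bases and CCTTGTTTGG at 34 to 25 bases before the start, an element that 8.6% of all windows hold. TGGGAA was found in *Acta2*, where it overlaps the second CArG-like match, in *Vtn* at 236 to 231 bases and in *Abcc9* at 221 to 216 bases before the start, against 21.6% of all windows. *Rgs5*, *Cspg4*, *Notch3* and *Des* held none of the 3 motifs. The *Acta2* window lies partly within the extent of the gene in the annotation (chr19:34240336-34255585), which reaches beyond the start used here. All of its matches lie in that part, before the start used here but inside the annotated gene. The *Abcc9* window lies wholly within the extent of its gene (chr6:142587862-142702766), so its match is before the start used here but inside the annotated gene, and the *Notch3* window overlaps its gene at the end (chr17:32120820-32166896). A match is a run of letters and was not tested as a binding site.

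*Vtn* was the gene of the set that passed in the comparison of the tumor genotypes. Vitronectin is a matrix and plasma glycoprotein bound by αv integrins, and in the brain its mRNA is a pericyte marker. The *Vtn* probe (chr11:78499120-78502325, GRCm38.p6) read 9.47, 9.27, 9.67 and 9.78 on the *NdpKO;Ptch+/-* MB arrays, against 8.88, 8.28, 8.51 and 8.90 on the *Ptch+/-* MB arrays. All 4 compound mutant tumors were above all 4 *Ptch+/-* tumors. The means were 9.55 ± 0.23 and 8.64 ± 0.30 (SD, n = 4 each), a log2 fold change of 0.90 (SE 0.18, 95% interval 0.51 to 1.30) or 1.87-fold, with an adjusted p of 0.0427 (limma, Benjamini-Hochberg over all probes). In bulk samples such as these, more cells of a type and more RNA per cell cannot be told apart. The call was close to the threshold. It was lost when the tumors were fitted without the GNPs (adjusted p = 0.154) and when any array but the fourth *Ptch+/-* MB was left out (adjusted p 0.0528 to 0.103), while the log2 fold change stayed between 0.78 and 1.00 over the fits that left out 1 array.

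Against GNPs, *Vtn* fell in *Ptch+/-* MBs, while *NdpKO;Ptch+/-* MBs did not pass. GNPs read 9.40, 9.12, 9.72 and 9.45 (mean 9.42 ± 0.24), within or near the range of the *NdpKO;Ptch+/-* MBs and above every *Ptch+/-* MB. The log2 fold change of *Ptch+/-* MBs over GNPs was -0.78 (SE 0.18, 95% interval -1.18 to -0.39, adjusted p = 0.0137), which passed in all 19 other fits. That of *NdpKO;Ptch+/-* MBs over GNPs was 0.12 (95% interval -0.27 to 0.52, adjusted p = 0.734). The 2 tumor comparisons share the GNP arrays, and the difference between them is the genotype comparison above.

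*Acta2*, which encodes smooth muscle α-actin, had the largest difference of the set between the tumor genotypes and did not pass. Its brightest probe (chr19:34240336-34255585) read 8.99, 9.40, 10.56 and 10.11 in *NdpKO;Ptch+/-* MBs, against 9.48, 7.37, 7.96 and 7.88 in *Ptch+/-* MBs and 9.76, 9.45, 9.07 and 9.20 in GNPs. Of the 4 *Ptch+/-* MBs, 3 lay below every other array, and replicate 1 lay among the compound mutants. The means were 9.77 ± 0.71 in *NdpKO;Ptch+/-* MBs, 8.17 ± 0.91 in *Ptch+/-* MBs and 9.37 ± 0.30 in WT GNPs (SD, n = 4 each). *NdpKO;Ptch+/-* MBs exceeded *Ptch+/-* MBs by 1.59 on the log2 scale, or 3.01-fold (SE 0.47, 95% interval 0.54 to 2.65, adjusted p = 0.165). They exceeded GNPs by 0.40 (adjusted p = 0.671), and *Ptch+/-* MBs were 1.20 below GNPs (log2 fold change -1.20, 95% interval -2.25 to -0.14, adjusted p = 0.121).

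The first *Ptch+/-* MB array decided the calls for *Acta2*. Without it the genotype difference was 2.03 (adjusted p = 0.0448) and the difference between *Ptch+/-* MBs and GNPs was -1.63 (adjusted p = 0.0184), and both passed. Leaving out any other array gave no call in either comparison.

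*Acta2* has 6 probes, of which 4 reached the limit on at least 1 array. The second (*ILMN_2923445*) read 5.0, 6.02, 7.10 and 5.99 in *NdpKO;Ptch+/-* MBs, against 5.65, 4.38, 4.52 and 4.23 in *Ptch+/-* MBs and 5.75, 5.43, 5.45 and 5.01 in GNPs. The third (*ILMN_2710354*) read 4.67, 4.57, 6.73 and 6.43 in *NdpKO;Ptch+/-* MBs, against 5.36, 4.30, 4.25 and 4.20 in *Ptch+/-* MBs and 6.34, 5.82, 4.45 and 5.54 in GNPs. On all 3 probes the highest *Ptch+/-* MB was replicate 1 and the highest *NdpKO;Ptch+/-* MB was replicate 3. The genotype difference was 1.33 for the second probe (adjusted p = 0.216) and 1.07 for the third (adjusted p = 0.505), with several *Ptch+/-* MB arrays under the limit, so that these are fitted values. The fourth reached the limit on 1 array and the remaining 2 on none. With the mean of the 6 probes in place of the brightest, the difference was 0.70 (adjusted p = 0.193). The mouse actins are close to identical in their coding sequence, the position of each probe in the transcript is not given in the sources used here, and cross-hybridization between actins was not tested.

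**Figure D2:**
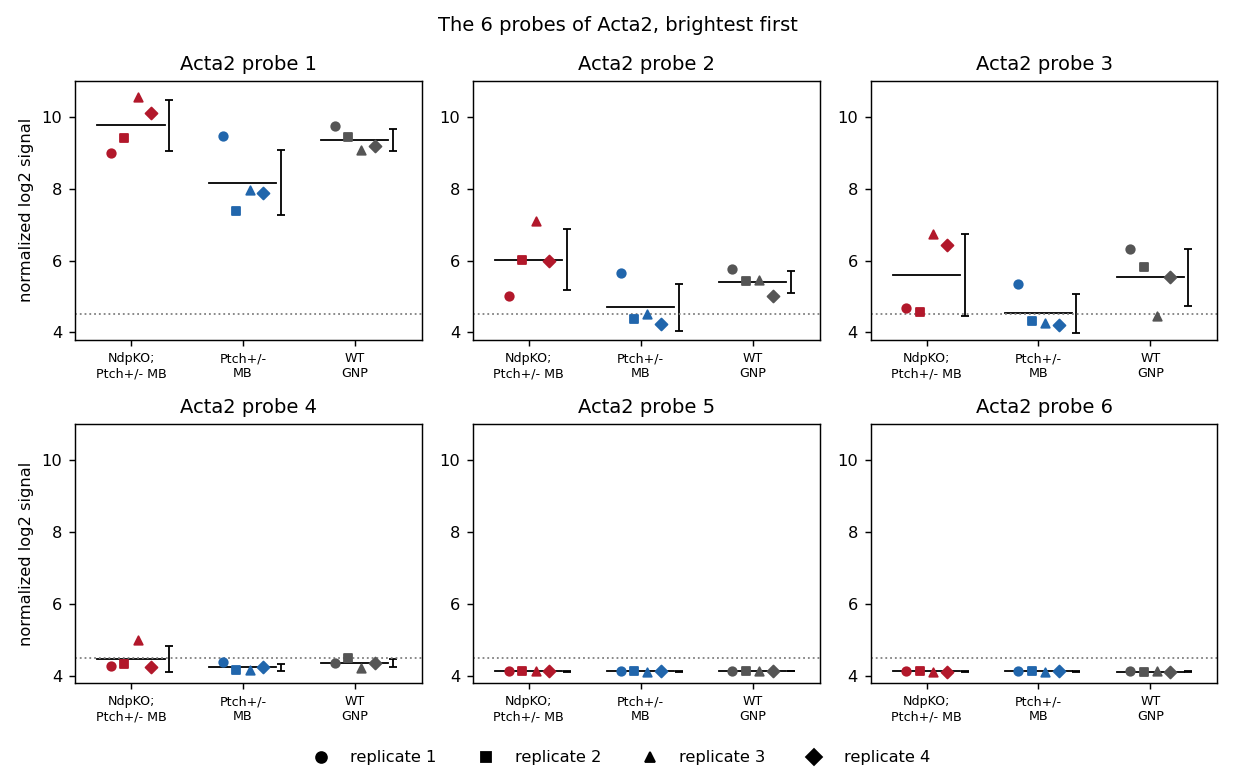
Normalized log2 signal (y axis) of the 6 *Acta2* probes, brightest first, on 4 arrays each of *NdpKO;Ptch+/-* MBs, *Ptch+/-* MBs and WT GNPs; symbols are arrays, lines means, bars 1 SD and the dotted line the limit of 4.5. The first 3 probes place *Ptch+/-* MB replicate 1 highest in its group, and the last 2 lie at the floor on every array.

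*Rgs5*, a regulator of G-protein signalling and among the most used pericyte markers, varied more within groups than between them. Its probe (chr1:169655501-169695813) read 7.66, 9.03, 9.47 and 8.37 in *NdpKO;Ptch+/-* MBs, against 8.63, 6.40, 7.26 and 7.71 in *Ptch+/-* MBs and 7.60, 7.01, 8.69 and 7.76 in GNPs. All 3 groups overlapped. The means were 8.63 ± 0.79 in *NdpKO;Ptch+/-* MBs, 7.50 ± 0.93 in *Ptch+/-* MBs and 7.76 ± 0.70 in WT GNPs (SD, n = 4 each). The log2 fold change between the tumor genotypes was 1.13, or 2.19-fold (SE 0.56, 95% interval -0.11 to 2.38, adjusted p = 0.434), and the interval takes in no change as well as a difference above that of *Vtn*. Against GNPs it was 0.87 in *NdpKO;Ptch+/-* MBs (adjusted p = 0.387) and -0.27 in *Ptch+/-* MBs (adjusted p = 0.812). The sign in *Ptch+/-* MBs turned without *Ptch+/-* MB replicate 2 (0.10) and without GNP replicate 3 (0.04). As with *Acta2*, replicate 3 was the highest *NdpKO;Ptch+/-* MB, replicate 1 the highest *Ptch+/-* MB and replicate 2 the lowest.

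*Cspg4*, the NG2 proteoglycan, was higher in both tumor types than in GNPs and did not pass between them. Pericytes and oligodendrocyte precursors both carry NG2. The probe (chr9:56865104-56899870) read 5.97, 5.81, 6.18 and 6.40 in *NdpKO;Ptch+/-* MBs, against 4.62, 5.94, 6.75 and 5.58 in *Ptch+/-* MBs and 4.28, 4.25, 4.66 and 4.34 in GNPs. The compound mutant tumors lay close together, whereas the *Ptch+/-* MBs spanned the range from GNP levels to the highest value of the set of arrays. *NdpKO;Ptch+/-* MBs were above GNPs by 1.70, or 3.26-fold (SE 0.37, 95% interval 0.87 to 2.54, adjusted p = 0.0146), with no overlap, and this passed in all 19 other fits. *Ptch+/-* MBs were above GNPs by 1.34, or 2.53-fold (95% interval 0.50 to 2.17, adjusted p = 0.0348), with overlap. With 1 array left out, the comparison of *Ptch+/-* MBs with GNPs passed only without *NdpKO;Ptch+/-* MB replicate 2 (adjusted p = 0.0448), *NdpKO;Ptch+/-* MB replicate 4 (0.0452) or *Ptch+/-* MB replicate 1 (0.00326), and otherwise had an adjusted p of 0.0507 to 0.0836. Only 1 of the 4 GNP arrays reached the limit, so both folds are fitted values. Between the tumor genotypes the difference was 0.37 (95% interval -0.46 to 1.20, adjusted p = 0.775), and it vanished without *Ptch+/-* MB replicate 1 (-0.00061).

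A list of 8 genes of oligodendrocyte precursors was read beside *Cspg4*. Of the 8, 2 were higher in *NdpKO;Ptch+/-* MBs than in GNPs and none was lower, and 2 were higher and 1 lower in *Ptch+/-* MBs. All 8 reached the limit on some array, and among all genes with a mean at or above it 15.5% were higher in *NdpKO;Ptch+/-* MBs and 19.7% in *Ptch+/-* MBs, so nothing about the list is read from these counts. *Olig1*, a transcription factor of the lineage, was above GNPs by 1.58 in *NdpKO;Ptch+/-* MBs (adjusted p = 0.00438) and by 1.57 in *Ptch+/-* MBs (adjusted p = 0.0035). *Pdgfra*, the receptor for PDGF-A on these cells, was above GNPs by 0.65 in *NdpKO;Ptch+/-* MBs (adjusted p = 0.0489) and by 0.88 in *Ptch+/-* MBs (adjusted p = 0.0092). The lower gene, *Gpr17*, a receptor of the same lineage named after its values were seen, was 2.46 below GNPs on the log2 scale in *Ptch+/-* MBs (adjusted p = 0.0496, lost in 11 of 19 other fits and -1.58 without *Ptch+/-* MB replicate 1). The summed linear signal of the list was 12797 to 18125 in *NdpKO;Ptch+/-* MBs, 10974 to 20999 in *Ptch+/-* MBs and 6195 to 10276 in WT GNPs. The lowest of the 4 *Ptch+/-* MBs was replicate 1 and the highest replicate 3, as for *Cspg4*. Among the *NdpKO;Ptch+/-* MBs replicate 2 was the lowest in both, whereas the highest was replicate 1 for the list and replicate 4 for *Cspg4*. The part of these cells in the *Cspg4* result was not tested.

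*Abcc9*, whose product pairs with the channel pore Kir6.1 in pericytes and smooth muscle, lay close to the limit. The brightest of its 4 probes (chr6:142587862-142702766) read 4.53, 4.61, 4.90 and 4.45 in *NdpKO;Ptch+/-* MBs, against 4.25, 4.23, 4.57 and 4.23 in *Ptch+/-* MBs and 4.29, 4.17, 4.26 and 4.29 in GNPs. The other 3 probes were under the limit on all arrays. Every *NdpKO;Ptch+/-* MB was above every GNP sample, and since no GNP array reached the limit, the ratio is at least 1.09-fold, with 4.5 standing for the GNP level. That comparison passed (adjusted p = 0.0462), but with 1 array left out it passed only without *NdpKO;Ptch+/-* MB replicate 4 (0.0343) or *Ptch+/-* MB replicate 3 (0.0238), and otherwise had an adjusted p of 0.0574 to 0.115. Between the tumor genotypes the difference was 0.30 (95% interval 0.07 to 0.53, adjusted p = 0.239). *Kcnj8*, which encodes Kir6.1 and was singled out after its values were seen, read 5.50, 5.93, 4.62 and 4.41 in *NdpKO;Ptch+/-* MBs and stayed between 4.18 and 4.35 in *Ptch+/-* MBs and GNPs. It was at least 1.53-fold higher in *NdpKO;Ptch+/-* MBs than in *Ptch+/-* MBs by the same reckoning and did not pass (adjusted p = 0.228).

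Read over the set, 1 of 10 genes (*Vtn*) was higher in *NdpKO;Ptch+/-* than in *Ptch+/-* MBs and 0 were lower by limma, against 0.808% of all 19057 genes higher and 1.26% lower. At an unadjusted p under 0.05, 4 were higher (*Vtn*, *Acta2*, *Abcc9* and *Pdgfrb*, the last at the floor on all arrays) and 0 lower. The share of all genes at that unadjusted threshold was not counted. The genotypes did not overlap for 1 gene, *Vtn*, against 4.68% of all genes with every compound mutant higher. Against GNPs, 2 genes (*Cspg4* and *Abcc9*) were higher in *NdpKO;Ptch+/-* MBs and 0 lower, where 7.69% of all genes were higher and 7.98% lower. In *Ptch+/-* MBs 1 (*Cspg4*) was higher and 1 (*Vtn*) lower than in GNPs, where 10.3% of all genes were higher and 10.9% lower. Every *NdpKO;Ptch+/-* MB was above every GNP sample for 3 genes (*Cspg4*, *Abcc9* and *Pdgfrb*, the last at the floor), against 12.7% of all genes, and every *Ptch+/-* MB was below every GNP sample for 1 (*Vtn*), against 14.6%. Among the 8913 genes with a mean at or above the limit, which include 4 of the 10, the shares that passed were 1.60% higher and 2.59% lower between the tumor genotypes, 15.5% higher and 13.3% lower in *NdpKO;Ptch+/-* MBs against GNPs, and 19.7% higher and 18.5% lower in *Ptch+/-* MBs against GNPs. With so few of the 10 above background these counts are small, and nothing about the set as a whole is read from them. The median log2 fold change over the 10 genes was 0.16 between the tumor genotypes, against 0.00070 over all genes and 0.024 over those with a mean at or above the limit. It falls between *Des*, at the floor, and *Abcc9*, near the limit, and nothing is read from it either. Over the further pericyte and smooth muscle genes described below the medians were 0.0072 and 0.017.

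**Figure D3:**
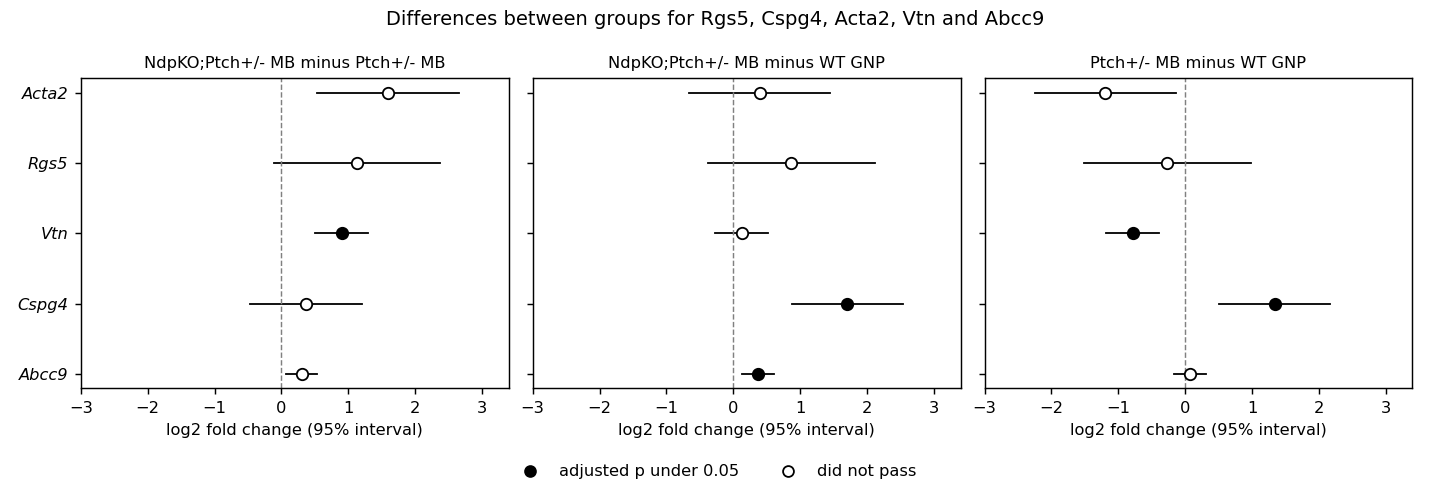
Log2 fold changes (x axis) with 95% intervals for *Rgs5*, *Acta2*, *Vtn*, *Cspg4* and *Abcc9* in the 3 comparisons, from the limma fit over 12 arrays; filled points passed at an adjusted p under 0.05. *Vtn* passes in the left panel, *Cspg4* and *Abcc9* in the middle and *Cspg4* and *Vtn* in the right, and the interval of *Acta2* between the tumor genotypes lies above 0 without passing the adjustment.

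No gene on the further list for contractile mural cells passed between the tumor genotypes. Of 17 further smooth muscle genes, 9 were under the limit on all arrays, and 0 passed by limma, where 6 were higher and 0 lower at an unadjusted p under 0.05. With no share of all genes counted at that threshold, nothing is read from the 6. The median difference over the 17 was 0.02. Among the 7 with a mean at or above the limit, 6 had a positive difference, and *Flna*, the actin crosslinker filamin A, was level (-0.0079). Over all genes with such a mean the median difference was 0.024, and the share with a positive difference was not counted. Against GNPs 0 passed in *NdpKO;Ptch+/-* MBs (3 higher and 0 lower at an unadjusted p under 0.05), and in *Ptch+/-* MBs 1 was higher and 2 were lower (*Myl9* and *Tpm1*). Of these, *Flna* (0.71, adjusted p = 0.0403, lost in 9 of 19 other fits and 0.35 with the mean of its probes) and *Tpm1*, a tropomyosin (-0.36, adjusted p = 0.0117), are named after their values were seen. *Ppp1r14a*, an inhibitor of myosin phosphatase, read 5.74, 6.78, 5.35 and 6.79 in *NdpKO;Ptch+/-* MBs, against 4.34, 4.28, 5.02 and 4.37 in *Ptch+/-* MBs and 5.03, 6.41, 5.79 and 4.48 in GNPs. The tumor genotypes did not overlap, but the fitted difference of 1.66 did not pass (adjusted p = 0.141). *Myl9*, a regulatory light chain of smooth muscle myosin, read 6.71, 6.85, 7.48 and 7.65 in *NdpKO;Ptch+/-* MBs, against 5.95, 6.29, 5.04 and 6.72 in *Ptch+/-* MBs and 7.84, 7.72, 7.10 and 7.21 in WT GNPs. Its genotype difference was 1.17 (95% interval 0.35 to 1.99, adjusted p = 0.187). In *Ptch+/-* MBs it fell by 1.47 below GNPs (adjusted p = 0.0214), a call that was lost without GNP replicate 1 (adjusted p = 0.0612) or GNP replicate 2 (0.0589). *Tpm2* also had one of the 3 smallest p-values and lay at the floor. *Mylk*, the myosin light chain kinase, was chosen after its values were seen as a further partner of *Myl9*, and averaged 8.11 in *NdpKO;Ptch+/-* MBs, 7.13 in *Ptch+/-* MBs and 7.69 in WT GNPs (genotype difference 0.98, adjusted p = 0.429). That difference was as low as 0.28 in another setting.

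Further pericyte genes went both ways. Of the 16 on the list 14 had probes and 6 of those were under the limit on all arrays. Between the tumor genotypes 1 passed, *Ifitm1*, an interferon-induced membrane protein that many cell types make. It read 9.91, 9.55, 10.03 and 9.87 in *NdpKO;Ptch+/-* MBs, against 10.54, 11.16, 11.15 and 11.18 in *Ptch+/-* MBs and 9.63, 9.54, 9.42 and 9.25 in WT GNPs. This gene was thus lower in *NdpKO;Ptch+/-* than in *Ptch+/-* MBs, opposite to *Vtn* (log2 fold change -1.17, SE 0.16, adjusted p = 0.0105), and higher in *Ptch+/-* MBs than in GNPs by 1.55 (adjusted p = 0.000169). The genotype call was lost when the tumors were fitted alone (adjusted p = 0.0871) and with the replicate number as a block (0.0607). With the mean of the probes of *Ifitm1* the differences were -0.68 between the genotypes and 0.80 between *Ptch+/-* MBs and GNPs, and both passed. Against GNPs, 0 of the 14 were higher and 1 lower in *NdpKO;Ptch+/-* MBs, and 2 were higher (*Ifitm1* and *P2ry14*) and 1 lower in *Ptch+/-* MBs, and *P2ry14* and the lower gene, *Foxc1*, are named after their values were seen. *P2ry14*, a receptor for UDP sugars, averaged 7.69 in *Ptch+/-* MBs, against 5.59 in GNPs (log2 fold change 2.09, adjusted p = 0.0195), a call that was lost without *Ptch+/-* MB replicate 1 (adjusted p = 0.0533) or GNP replicate 1 (0.0546), and that was 1.36 with the mean of its probes. *Foxc1*, a forkhead transcription factor of mural and meningeal cells, was lower than in GNPs in both tumor groups (-0.28 and adjusted p = 0.00428 in *NdpKO;Ptch+/-* MBs, -0.21 and adjusted p = 0.0158 in *Ptch+/-* MBs), at levels of 4.15 to 4.52, at or near the floor. *Mcam* (CD146), a surface adhesion molecule of mural and endothelial cells named here after its values were seen, read 4.84, 6.94, 7.56 and 6.25 in *NdpKO;Ptch+/-* MBs, against 4.67, 4.29, 4.32 and 4.29 in *Ptch+/-* MBs and 5.27, 5.51, 5.63 and 4.83 in GNPs. The tumor genotypes did not overlap, and the fitted difference of 2.01 did not pass (adjusted p = 0.0959). It passed in 3 of 20 other fits, namely without *NdpKO;Ptch+/-* MB replicate 1 (2.53, adjusted p = 0.0127), with dim probes left out (0.0446) and with an intensity trend and robust prior (0.0268). With the tumors alone the adjusted p was 0.292, and with the mean of its probes the difference was 0.79 (adjusted p = 0.086).

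**Figure D4:**
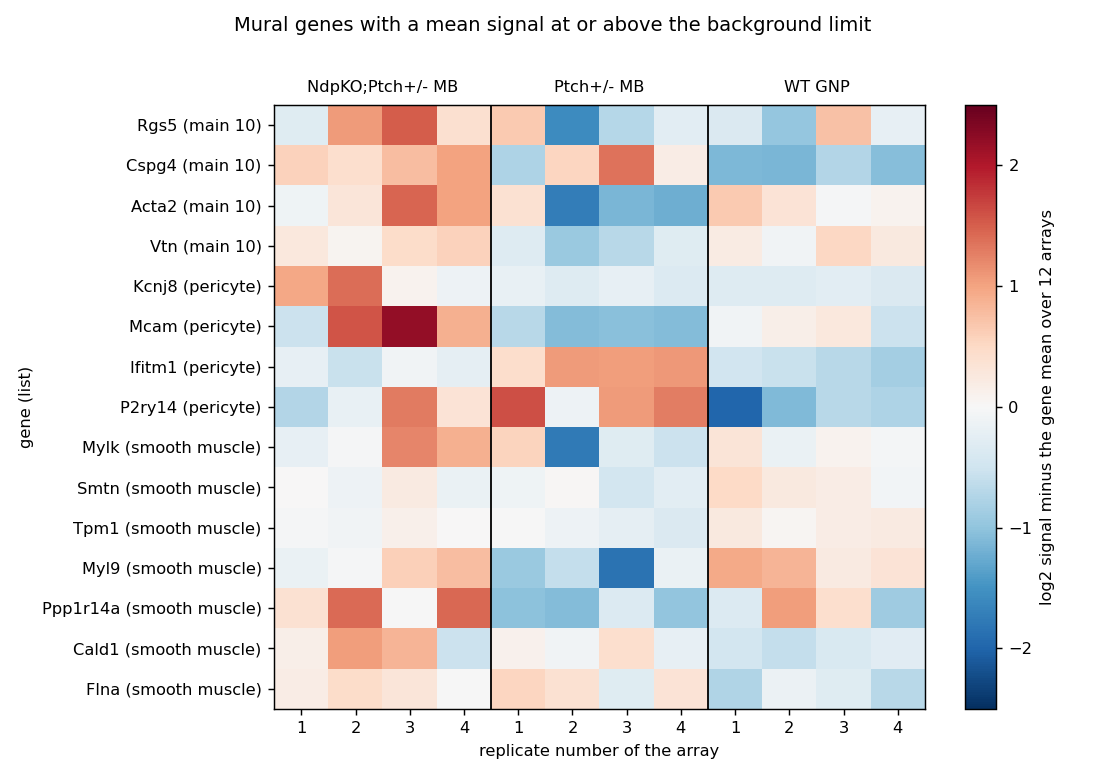
Log2 signal minus the gene's mean over the 12 arrays (colour scale) for the genes of the set and of the 2 further mural lists whose mean signal was at or above 4.5; columns are the arrays of *NdpKO;Ptch+/-* MBs, *Ptch+/-* MBs and WT GNPs, by replicate number, and rows name the gene and its list. *Ptch+/-* MB replicates 2 to 4 are below the mean for *Acta2*, *Vtn* and *Mcam*, whereas *Ifitm1* is above its mean on all 4 *Ptch+/-* MB arrays.

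The next list holds genes that recruit or instruct mural cells. Of 27 such genes 0 passed between the tumor genotypes by limma, with 3 higher and 3 lower at an unadjusted p under 0.05. Against GNPs, 6 were higher and 5 lower in *NdpKO;Ptch+/-* MBs, and 6 were higher and 6 lower in *Ptch+/-* MBs. Over all genes too, few passed between the tumor genotypes (0.808% higher and 1.26% lower) and more against GNPs (7.69% and 7.98% in *NdpKO;Ptch+/-* MBs, 10.3% and 10.9% in *Ptch+/-* MBs), so the order of these counts is not particular to the list. *Pdgfb*, the ligand that recruits pericytes and a gene singled out after its values were seen, averaged 6.44 ± 0.61 in *NdpKO;Ptch+/-* MBs, 5.65 ± 0.39 in *Ptch+/-* MBs and 6.23 ± 0.72 in WT GNPs. The tumor genotypes did not overlap, yet the difference of 0.79 did not pass (adjusted p = 0.46) and was as low as 0.39 in another setting. *Pdgfa*, which signals mainly through *Pdgfra*, averaged 11.78 in *NdpKO;Ptch+/-* MBs, 12.42 in *Ptch+/-* MBs and 10.51 in WT GNPs, and was above GNPs by 1.26 in *NdpKO;Ptch+/-* MBs (adjusted p = 0.00196) and by 1.91 in *Ptch+/-* MBs (adjusted p = 0.000122). *Angpt2*, the Tie2 ligand that loosens the contact of pericytes and endothelium, averaged 8.24 in *NdpKO;Ptch+/-* MBs, 7.50 in *Ptch+/-* MBs and 7.05 in WT GNPs. The *NdpKO;Ptch+/-* MBs were above GNPs (1.19, adjusted p = 0.00838) and the tumor genotypes, although they did not overlap, did not pass (0.74, adjusted p = 0.188). In other settings these differences were as low as 0.60 and 0.37. *Tgfb3*, a ligand that promotes mural differentiation, had the smallest p of the list between the genotypes but lay at the limit, with a mean of 4.46 in *NdpKO;Ptch+/-* MBs against 4.23 in *Ptch+/-* MBs, and 4.21 in WT GNPs. Its genotype difference of 0.23 had an adjusted p of 0.0674, which passed in 4 of 8 other settings (lowest 0.0363) and without *NdpKO;Ptch+/-* MB replicate 3 (0.0333).

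*Srf*, which encodes the factor that binds CArG elements, was singled out after its values were seen because of the matches in *Acta2*. It averaged 9.75 ± 0.25 in *NdpKO;Ptch+/-* MBs and 9.63 ± 0.10 in *Ptch+/-* MBs, against 12.48 ± 0.06 in GNPs (SD, n = 4 each), so it fell by 2.73 in *NdpKO;Ptch+/-* MBs (adjusted p = 3.03e-07) and fell by 2.86 in *Ptch+/-* MBs (adjusted p = 1.89e-07). *Acta2* did not pass in either of these comparisons. *Edn1*, an endothelial peptide that contracts mural cells and likewise chosen after its values were seen, was under the limit on every tumor array, against a mean of 6.57 in GNPs (adjusted p = 0.000194 in *NdpKO;Ptch+/-* MBs and 0.000139 in *Ptch+/-* MBs). The αv integrins bind vitronectin. *Itgav* averaged 7.98 in *NdpKO;Ptch+/-* MBs, 7.95 in *Ptch+/-* MBs and 7.65 in WT GNPs and did not pass, and *Itgb5*, a partner chain, was above GNPs by 1.99 in *NdpKO;Ptch+/-* MBs (adjusted p = 0.00985) and by 2.55 in *Ptch+/-* MBs (adjusted p = 0.00194), both named after their values were seen.

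Markers of other cell types were read beside these genes, and not all of the lists went the same way. The summed linear signal of the 10 genes, most of it from *Acta2*, *Vtn* and *Rgs5*, was 1592, 1990, 3227 and 2518 in *NdpKO;Ptch+/-* MBs, against 1718, 732, 988 and 1082 in *Ptch+/-* MBs and 1871, 1511, 1930 and 1636 in GNPs. *Ptch+/-* MB replicates 2 to 4 were below every other array. The sum of the further pericyte list, most of it from *Ifitm1*, went the other way. It was 1292 to 1708 in *NdpKO;Ptch+/-* MBs, 2046 to 2805 in *Ptch+/-* MBs and 900 to 1060 in GNPs. That of the further smooth muscle list was 2720 to 3351, 2198 to 2961 and 2651 to 2928 in the same order. Of 22 endothelial genes 4 were higher in *NdpKO;Ptch+/-* than in *Ptch+/-* MBs and 0 lower, led by *Mmrn2* (2.47, adjusted p = 0.00941) and *Ramp2* (0.72, adjusted p = 0.0192), where 0.808% of all genes were higher. Against GNPs, 3 were higher and 3 lower in *NdpKO;Ptch+/-* MBs, and 2 were higher and 10 lower in *Ptch+/-* MBs, where 10.9% of all genes were lower. The 10 include *Pecam1* and *Cdh5*, adhesion molecules that define endothelium and are named after their values were seen. *Pecam1* averaged 5.09 in *NdpKO;Ptch+/-* MBs, 4.40 in *Ptch+/-* MBs and 6.16 in WT GNPs (*Ptch+/-* MBs minus GNPs -1.76, adjusted p = 0.0263, lost in 6 of 19 other fits). *Cdh5* read 5.17 to 6.29 in *NdpKO;Ptch+/-* MBs, 4.25 to 5.16 in *Ptch+/-* MBs and 5.45 to 7.02 in WT GNPs (-1.74, adjusted p = 0.0104). With the mean of each gene's probes the differences were -0.60 for *Pecam1* and -0.90 for *Cdh5*, and both passed. *Vtn* was likewise lower in *Ptch+/-* MBs than in GNPs. The summed signal of the endothelial list was 9567 to 11803 in *NdpKO;Ptch+/-* MBs, 6803 to 10064 in *Ptch+/-* MBs and 7430 to 10298 in WT GNPs. Of 11 measured skeletal muscle genes 1 was higher in *NdpKO;Ptch+/-* than in *Ptch+/-* MBs (*Cdh15*, 4.21, adjusted p = 0.0011), and *Myod1*, the defining factor of myoblasts, averaged 9.24 in *NdpKO;Ptch+/-* MBs, 6.23 in *Ptch+/-* MBs and 4.29 in WT GNPs. The sum of that list was 1326 to 1816 in *NdpKO;Ptch+/-* MBs, 195 to 405 in *Ptch+/-* MBs and 215 to 360 in WT GNPs, and 6 of its genes were under the limit on all arrays. *Des*, which skeletal muscle makes as well, was under the limit in the same tumors. The sarcomeric actins *Acta1* and *Actc1* of that list were highest among the *NdpKO;Ptch+/-* MBs in replicate 2 (6.73 and 7.26), whereas *Acta2* was highest in replicate 3.

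Red cell and meningeal genes are given because vessels and meninges carry mural cells. Of 3 measured red cell genes 0 passed between the tumor genotypes by limma (1 higher at an unadjusted p under 0.05), and 2 were under the limit throughout. The sum, nearly all *Hba-a1*, was 1193 to 6650 in *NdpKO;Ptch+/-* MBs, 106 to 1617 in *Ptch+/-* MBs and 2130 to 7735 in WT GNPs, with replicate 3 the highest of the *NdpKO;Ptch+/-* MBs, as for *Acta2* and *Rgs5*. Among the *Ptch+/-* MBs the order differed, with a sum of 162 in replicate 1, which had the highest *Acta2* and *Rgs5*, and 1170 and 1617 in replicates 2 and 3. Of 16 fibroblast and meningeal genes 0 passed between the genotypes by limma, with 0 higher and 4 lower at an unadjusted p under 0.05, and 5 were lower in each tumor group than in GNPs. In the other direction, 1 was higher in *NdpKO;Ptch+/-* MBs (*Mgp*, matrix Gla protein, 3.12, adjusted p = 0.00285) and 2 in *Ptch+/-* MBs (*Mgp*, 2.81, adjusted p = 0.0038, and *Aldh1a2*, at the floor), both named after their values were seen. Over all genes 7.98% were lower in *NdpKO;Ptch+/-* MBs and 10.9% in *Ptch+/-* MBs. The sum of the list was 6910 to 10128 in *NdpKO;Ptch+/-* MBs, 5437 to 14359 in *Ptch+/-* MBs and 14337 to 17134 in WT GNPs, and replicate 1, the *Ptch+/-* MB with the highest *Acta2*, *Rgs5* and *Mylk*, was the highest of its group. Among the *NdpKO;Ptch+/-* MBs the replicate with the highest *Acta2*, *Rgs5* and *Mylk*, replicate 3, had instead the lowest sum (6910, against 9229 to 10128 in the others). Of 8 choroid plexus genes 0 passed between the genotypes by limma, with 0 higher and 0 lower at an unadjusted p under 0.05. Their sum was 1913 to 5925 in *NdpKO;Ptch+/-* MBs, 32359, 9320, 1506 and 23447 in *Ptch+/-* MB replicates 1 to 4 and 3371 to 6780 in WT GNPs. The highest array was thus the *Ptch+/-* MB without which *Acta2* passed. Replicate 4, the next highest, had an *Acta2* signal of 7.88, near the 7.37 and 7.96 of replicates 2 and 3. Of 9 measured microglial genes 0 passed between the genotypes by limma (0 higher and 2 lower at an unadjusted p under 0.05), and their sum was 2616 to 3839 in *NdpKO;Ptch+/-* MBs, 2948 to 6548 in *Ptch+/-* MBs and 515 to 668 in WT GNPs. The GNPs were purified cells and yet had higher means of *Acta2*, *Rgs5* and *Vtn* than whole *Ptch+/-* tumors. Of these differences only that of *Vtn* passed, and that of *Rgs5* was small beside its spread (-0.27, adjusted p = 0.812). The part of blood vessel, muscle, meningeal, choroid plexus, microglial and blood content in the differences of *Vtn* and *Acta2* was not tested.

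**Figure D5:**
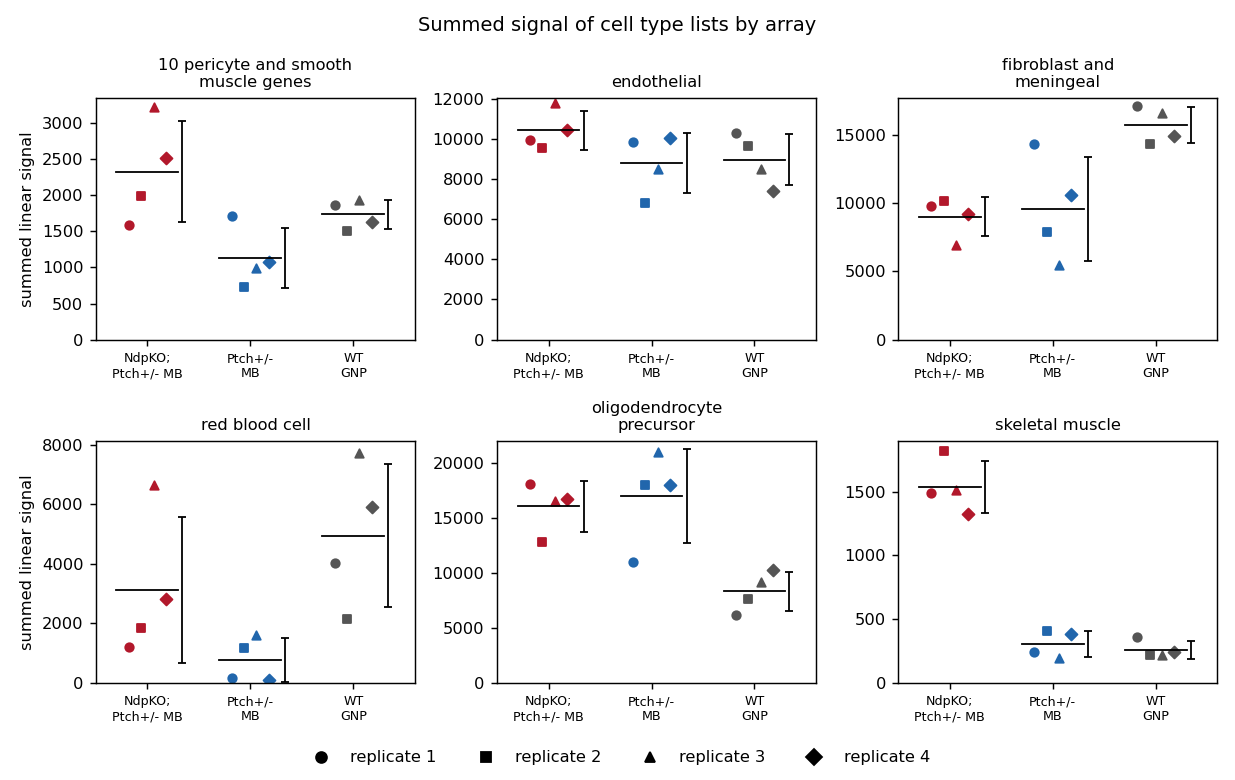
Summed linear signal (y axis, from 0) of the 10 pericyte and smooth muscle genes and of 5 marker lists on each array, with group means (lines) and 1 SD (bars) for *NdpKO;Ptch+/-* MBs, *Ptch+/-* MBs and WT GNPs. *Ptch+/-* MB replicates 2 to 4 are the lowest for the 10 genes, at 732 to 1082, and the skeletal muscle list separates the 4 *NdpKO;Ptch+/-* MBs, at 1326 to 1816, from the other 8 arrays.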

How the data were processed

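RNA of 4 *NdpKO;Ptch+/-* MBs, 4 *Ptch+/-* MBs and 4 WT GNP samples was hybridized to 12 arrays. The authors exported signals from BeadStudio and deposited them as log2 values after neqc (limma), a routine that subtracts background by means of control probes, adds an offset and quantile-normalizes the arrays. The version the authors used is not given in the sources used here, and per-bead signals were not used. Offset and normalization compress differences of dim probes and hide differences in general level, and the number of arrays limits precision. Probe symbols came from the platform annotation, which gave 1 symbol to 34885 probes, several to 18 and none to 10378. In all, 28101 probes (62.1%) were under the limit of 4.5 on every array.

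Groups were compared in R 4.3.3 with limma 3.58.1 (lmFit and eBayes, group means over all 12 arrays, no covariates), and p was adjusted by Benjamini-Hochberg over all 45281 probes with a threshold of 0.05. The fit shares 1 spread among groups, although GNPs varied less than the tumors for some genes (*Acta2*) and more for others (*Pdgfb*). Intervals are 95% and unadjusted. Counts at an unadjusted p under 0.05 are given without the share of all genes, which was not counted, and nothing is read from them. Where no array of the dimmer group reached 4.5, the ratio is given as at least the brighter mean over that limit. The model was tested on simulated data with independent noise, where only probes with a mean at or above 4.5 were changed. That test does not cover genes at or near the floor. Alternatives tried were to normalize by quantiles once more, to centre arrays and to leave out dim probes (mean under the median of all probe means). Median centring used the median of the probes that reached 4.5 on all 12 arrays. Others were a prior with intensity trend and robust estimation, weights for arrays and the replicate number as a block. The mean of a gene's probes, the tumors alone and leaving out each array were tried as well. Named were the 10 genes with every probe, the genes of the further mural and recruitment lists that passed between the tumor genotypes or else the 3 with the smallest p, the leading genes of other lists and *Ndp*. Some others were named after their values were seen, including *Cdh15*, *Myod1*, *Acta1*, *Actc1*, *Zic1*, *Barhl1*, *Neurod1*, *Pax6*, *Atoh1*, *P2ry14*, *Foxc1*, *Flna*, *Tpm1*, *Gpr17*, *Mgp*, *Aldh1a2*, *Pecam1* and *Cdh5*. The 10 genes and the lists were chosen with earlier results of these data known.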

Additional observations from a re-analysis of the deposited data

Results flagged for a closer look

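In 8 of the 76 groups of 4 arrays examined for genes named above, 1 array stood far from the other 3, with a gap to its nearest neighbour, relative to the group's range, above Dixon's 95% critical value. Away from the floor, chance gives about 1 such group in 20. That rate cannot be applied to the *Ptch+/-* MB groups of *Abcc9*, *Ppp1r14a*, *Mcam*, *Pecam1* and *Cdh5*. In them only the array that stood apart reached the background limit of 4.5. The other 3 lay under it, where differences are compressed. The number of flagged groups was therefore not compared with chance. *Abcc9* read 4.57 in *Ptch+/-* MB replicate 3, against 4.23 to 4.25 in the others. *Ppp1r14a* read 5.02 in the same sample, against 4.28 to 4.37. *Ifitm1* read 10.54 in *Ptch+/-* MB replicate 1, against 11.15 to 11.18 in the others, and *Mcam* read 4.67 there, against 4.29 to 4.32. *Pdgfb* read 7.35 in *NdpKO;Ptch+/-* MB replicate 3, against 6.09 to 6.20. *Srf* read 12.6 in GNP replicate 4, against 12.4 to 12.5, a gap that is small in absolute terms. In *Ptch+/-* MB replicate 1, *Pecam1* read 4.83, against 4.25 to 4.27 in the others, and *Cdh5* read 5.16, against 4.25 to 4.31.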

How the results depend on the processing

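Between *NdpKO;Ptch+/-* and *Ptch+/-* MBs, 154 genes of all were higher and 241 lower. The higher count became 304 without dim probes, 261 with an intensity trend and robust prior, 56 with the replicate block, 237 with the mean of a gene's probes and 15 with the tumors alone, where the fit has fewer arrays. The lower count became 517 with median centring, 367 without dim probes, 371 with the trend, 94 with the replicate block and 30 with the tumors alone. The count of the 10 genes that were higher became 0 with the tumors alone. Between *NdpKO;Ptch+/-* MBs and GNPs, 1466 were higher and 1520 lower, and median centring gave 1733 higher and 4243 lower. Centring shifts all probes of an array by the same amount, those at the floor included. In this comparison the log2 fold change of *Vtn* went from 0.123 to 0.111 and that of *Acta2* from 0.396 to 0.384. *Tagln*, at the floor, had an SE of 0.0063 there in the main fit. The cause of the count of 4243 was not tested. With each array left out, the ranges were 79 to 145 higher and 151 to 202 lower between the tumor genotypes, 1094 to 1484 and 1105 to 1543 for *NdpKO;Ptch+/-* MBs against GNPs, and 1535 to 2038 and 1666 to 2114 for *Ptch+/-* MBs against GNPs. Of the 10 genes, 0 to 1 were higher between the tumor genotypes, 1 to 2 were higher in *NdpKO;Ptch+/-* MBs than in GNPs, and 0 to 1 were higher and 1 to 2 lower in *Ptch+/-* MBs than in GNPs. For named genes, 875 values kept direction and side of the threshold, 12 gained and 75 lost the call, and 3 turned sign, all below the threshold: *Rgs5* between *Ptch+/-* MBs and GNPs (0.10 without *Ptch+/-* MB replicate 2, 0.04 without GNP replicate 3, over a range of -0.64 to 0.10) and *Cspg4* between the genotypes (-0.00061 without *Ptch+/-* MB replicate 1, over a range of -0.00061 to 0.71).

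Samples share only a replicate number across groups. Deviations of same-numbered samples correlated at -0.18 to 0.094 between the tumor genotypes, 0.012 to 0.044 between *NdpKO;Ptch+/-* MBs and GNPs and -0.044 to 0.11 between *Ptch+/-* MBs and GNPs, so the numbers were not taken as pairs. With the replicate block no call of the 10 genes changed, *Ifitm1* lost its genotype call, *Flna*, *Gpr17* and *Pecam1* lost theirs between *Ptch+/-* MBs and GNPs, and *Vtn* kept an adjusted p of 0.0439. The signal of the dimmest genes over background, with 5 of the 10 genes at or near the floor, limits what these arrays can show.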
